A study of Mus musculus with 2 samples.

Results

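Chemokine receptor expression was described in microglia sorted from the brains of sham-operated mice. The genes were chosen by name, as 9 chemokine receptors listed for this purpose, among them Cx3cr1, whose locus had been modified in these mice. The list was drawn up with earlier results of these data known. All 9 were found among the 53801 genes that each count file listed, and 8 of them had at least 10 counts in both libraries. The group held 2 libraries of sham microglia, each from 1 mouse. The mice were hemizygous for Cx3cr1 CreER, so that a single Cx3cr1 allele carried the gene of a tamoxifen-inducible Cre recombinase. They were on a C57BL/6 background, male and 8 to 10 weeks old by the series' description, whereas the study's methods give older mice of both sexes. All received 4 daily injections of tamoxifen at 75 mg/kg, and surgery followed 14 days after the first injection. Sham surgery omitted the occlusion of the middle cerebral artery, the treatment field of both samples reads none, and the left hemisphere was taken 3 days later. Cells were gated as CD11b+ and CD45low without CD11c or Ly6G. Every mouse in the group carried the modified allele and had received tamoxifen, and libraries of mice with 2 intact Cx3cr1 alleles or after stroke were not analysed here.

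Chemokine receptors are receptors with 7 membrane-spanning helices that couple to inhibitory G proteins and steer cells along gradients of small secreted proteins. CX3CR1 is the receptor of fractalkine, a chemokine that neurons present on their surface, and it is one of the defining genes of microglia, which is why its promoter is used to drive Cre in these cells. CCR1 and CCR2 guide monocytes and other myeloid cells to sites of inflammation. CCR6, CCR7 and CXCR3 are best known from lymphocytes and dendritic cells. CXCR4 is the receptor of CXCL12 and retains cells in the bone marrow. CCRL2 and ACKR1 are atypical receptors, which bind ligands without the usual G protein signal, and ACKR1 is known from red blood cells and venules.

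Library 1 held 23381026 counts on genes and library 2 held 41142609, so a count of 0 allowed up to 3 counts, or 0.128 CPM (counts per 1000000 counts on genes) and 0.0729 CPM. At these totals the 95% counting intervals were narrow for the abundant receptors and wide for the sparse ones, and they leave out all error other than counting, since reads amplified by PCR are not separate molecules. Microglia markers were abundant in both libraries, with 10 of 10 genes counted and sums of 36380 and 45199 CPM. Library 2 stood apart by its neutrophil genes, whose summed level was 59214 CPM against 4790.5 CPM in library 1. Because there was 1 group of 2 mice, no comparison between conditions was possible, and nothing was tested. Within these bulk libraries, fewer cells of a type and less RNA per cell cannot be told apart. The paper acknowledges that its enzymatic digestion of brain tissue could have changed transcription in microglia outside the animal. The part of such changes in the levels given here was not tested.

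**Figure D1:**
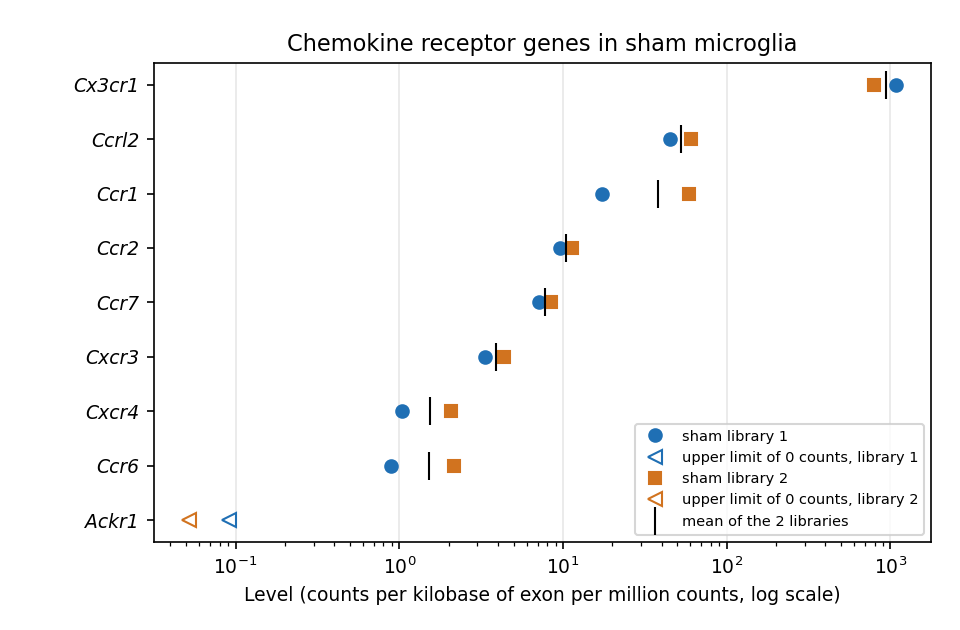
Level of each chemokine receptor gene in the 2 sham libraries, in CPM per kilobase of exon on a log axis (circles, library 1; squares, library 2; vertical bars, mean of both). Open triangles mark the highest level that 0 counts allow for Ackr1. Cx3cr1 lies at 1079 and 792, and no other receptor exceeds 60.1 in either library.

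RefSeq promoters of GRCm38.p6 were at hand for 8 of the 9 genes, with 11 start sites in all. Short stretches are shown for the most abundant receptor (Cx3cr1), for the one of the 9 that differed most between the mice (Ccr1) and for a receptor with few counts (Cxcr4). Capitals mark matches on either strand to GAGGAA (the core bound by PU.1 and other ETS factors), TATAAA (the TATA box), CCAAT or GGGCGG (the GC box). All 3 are written 5′ to 3′ on the minus strand, which is the strand of each gene. The Cx3cr1 stretch of 30 bases covers chr9:120068311-120068340. The other stretches are the 250 bases before the start site, at chr9:123968693-123968942 for Ccr1 and chr1:128592300-128592549 for Cxcr4.
Cx3cr1: aaaccagatgctATTGGctaacttcgaaaa
Ccr1: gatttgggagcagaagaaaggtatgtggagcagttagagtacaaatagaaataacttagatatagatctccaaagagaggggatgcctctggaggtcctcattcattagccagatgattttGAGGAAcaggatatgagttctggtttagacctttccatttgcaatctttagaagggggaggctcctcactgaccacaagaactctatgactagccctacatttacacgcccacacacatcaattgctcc
Cxcr4: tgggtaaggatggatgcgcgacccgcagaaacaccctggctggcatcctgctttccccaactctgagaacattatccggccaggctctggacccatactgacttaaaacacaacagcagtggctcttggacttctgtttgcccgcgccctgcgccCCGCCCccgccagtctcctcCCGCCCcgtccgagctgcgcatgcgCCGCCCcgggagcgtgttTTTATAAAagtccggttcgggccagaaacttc
Within 250 bases before the start site, the Cx3cr1 promoter held 1 match, to CCAAT on the opposite strand, 28 to 32 bases before the start. The Ccr1 promoter held 1 GAGGAA, 124 to 129 bases before the start. The Cxcr4 promoter held 3 GC boxes and a TATA box, whose letters match on both strands with an overlap. Its GC content was 61.2%, against 43.6% for Ccr1 and 53.6% for Cx3cr1. GAGGAA was present in 3 of the 11 promoters (1 each of Ccr1, Ccr6 and Cxcr3) and in 23.3% of the 32851 mouse promoters of the same length. TATAAA was in 1 of the 11 (Cxcr4) and in 12.4% of all. CCAAT was in 2 (Cx3cr1 and 1 of Ccrl2) and in 33.8% of all. GGGCGG was in 2 (Cxcr4 and 1 of Ccrl2) and in 32.7% of all. These are matches of letters and not measured binding sites.

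Cx3cr1 (ENSMUSG00000052336) had the highest level among the 9 receptors. It lies on the minus strand of chromosome 9 of GRCm38, from 119901616 to 120069879, a span that a single annotated transcript stretches with a short distant exon. Its counts numbered 113639 in library 1 and 146707 in library 2. These were 4860.3 and 3566 CPM, or 4213 ± 915 CPM (SD, n = 2 libraries). Cx3cr1 alone took 0.486% of all counts on genes in library 1 and 0.357% in library 2. Divided by its 4505 exonic bases, the level was 1079 CPM per kilobase of exon in library 1 and 792 in library 2, the 36th and the 60th highest value among all genes. Its mean level per length stood above 99.6% of the 13445 genes counted in both libraries. Counts per gene do not separate the CreER allele from the intact one, so the share of each allele in these values was not tested. Reads that fall on the 78 exonic bases shared with the antisense gene Gm33858, which had 280 and 341 counts, could be assigned to neither gene or to either, depending on whether strand was used in counting.

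Before adjustment for GC content and length, Cx3cr1 differed between the 2 mice relative to other microglia genes. Its CPM was 13.4% of the summed CPM of the 10 microglia markers in library 1 and 7.89% in library 2. Per length, its level was 0.600 times that of P2ry12, a purinergic receptor of resting microglia, in library 1 and 0.270 times in library 2. Against Tmem119, a surface protein of microglia, the ratio was 0.354 and 0.294. The log2 ratio of Cx3cr1 CPM between the libraries (library 2 over library 1) was -0.45, with a 95% counting interval of -0.46 to -0.44. Of the 10 microglia markers, 9 had a higher log2 ratio, and the exception was Sall1, a transcription factor of microglia, at -1.20. Among all counted genes, 43.2% had a lower log2 ratio than Cx3cr1. The direction for Cx3cr1 depended on the scaling. It was -0.20 with TMM library sizes and -0.17 with DESeq2 size factors, but 0.41 after subtraction of the median of genes with similar GC content and length. The 10 microglia markers had a median of 0.40 on the CPM scale and 0.48 after that subtraction, so Cx3cr1 lay nearer to their median after it.

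Ccrl2 (ENSMUSG00000043953), an atypical receptor that binds chemerin, ranked next. It lies on chromosome 9 from 111054486 to 111057519. Its 2734 counts in library 1 and 6423 in library 2 were 117 and 156 CPM, or 137 ± 27.7 CPM (SD, n = 2). The log2 ratio was 0.42, and it stayed between 0.34 and 0.69 under the other scalings.

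Ccr1 (ENSMUSG00000025804), a receptor of CCL3, CCL5 and related chemokines on myeloid cells, had the largest log2 ratio between the 2 mice among the 8 counted of the 9 listed receptors. It is on chromosome 9, from 123962124 to 123968692. The 1148 counts in library 1 and 6878 in library 2 were 49.1 CPM (95% Wilson interval 46.3 to 52.0) and 167 CPM (163 to 171). The level in library 2 was 3.40-fold that in library 1, a log2 ratio of 1.77 with a counting interval of 1.68 to 1.86. Of all genes counted, 97.5% had a lower log2 ratio. The mean was 108 ± 83.5 CPM (SD, n = 2).

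Ccr2 (ENSMUSG00000049103), the receptor of CCL2 that marks inflammatory monocytes, lies 133 kb beyond Ccr1 on chromosome 9, from 124101950 to 124113557 on the plus strand. Its 1521 and 3140 counts were 65.1 and 76.3 CPM, or 70.7 ± 7.97 CPM (SD, n = 2), so that library 2 was higher by less than 2-fold. The log2 ratio was 0.23, and 0.48, 0.51 and 0.78 with TMM, DESeq2 size factors and the GC and length adjustment. Of 6734 stretches of 75 bases, the read length, in the Ccr2 transcripts, 78 also occurred in transcripts of another receptor gene, so reads from them could be lost or shared. No such stretch was shared for Ccr1, Ccr6, Ccr7, Cxcr3, Cxcr4 or Ccrl2.

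The receptors best known from lymphocytes were sparse beside Cx3cr1. Per length, the mean level of Ccr7 still stood above 65.2% of all counted genes and that of Cxcr3 above 50.1%. Ccr7 (ENSMUSG00000037944; chromosome 11, 99144196 to 99155077), which guides dendritic cells and T cells to lymph nodes, had 328 and 686 counts in libraries 1 and 2. These were 14.03 and 16.7 CPM, or 15.4 ± 1.87 CPM (SD, n = 2). Cxcr3 (ENSMUSG00000050232; chromosome X, 101731535 to 101734269), the receptor of the interferon-induced chemokines CXCL9 and CXCL10, had 136 and 312 counts. These were 5.82 and 7.58 CPM, or 6.70 ± 1.25 CPM (SD, n = 2). Both differed by less than 2-fold between the mice, with log2 ratios of 0.25 (counting interval 0.057 to 0.44) and 0.38 (0.088 to 0.68).

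Ccr6 and Cxcr4 had the fewest counts above 0. Ccr6 (ENSMUSG00000040899; chromosome 17, 8236043 to 8257127), the receptor of CCL20, had 48 and 205 counts, or 2.05 and 4.98 CPM. Cxcr4 (ENSMUSG00000045382; chromosome 1, 128588199 to 128592293) had 44 and 153 counts, or 1.88 and 3.72 CPM. Both were higher in library 2, Ccr6 by 2.43-fold and Cxcr4 by 1.98-fold. With so few counts the intervals were wide, from 0.82 to 1.76 on the log2 scale for Ccr6 and from 0.49 to 1.501 for Cxcr4. Cxcr4 was the receptor just short of the 2-fold line on the CPM scale. It passed with TMM (log2 ratio 1.23) and with DESeq2 size factors (1.26), but not with the GC and length adjustment (0.64).

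Ackr1 (ENSMUSG00000037872; chromosome 1, 173331886 to 173333750) had 0 counts in both libraries. At these depths, this allows a level of up to 0.128 CPM in library 1 and 0.0729 CPM in library 2. The limit holds only for the part of the gene that could be counted, because 361 of its 1405 exonic bases are shared with Cadm3 on the same strand. Cadm3 itself had 2 counts in library 1 and 0 in library 2. Markers of the cells in which ACKR1 is known are given beside it. The 6 endothelial markers summed to 19.6 and 16.9 CPM in libraries 1 and 2, of which Pecam1 gave 16.1 and 14.4 CPM. Vwf had 11 and 34 counts and Selp had 11 and 35. The 6 erythroid markers were higher in library 2, with sums of 0.214 and 15.0 CPM from 5 and 616 counts.

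Ordered by mean level per kilobase of exon, the receptors ran from Cx3cr1 through Ccrl2, Ccr1, Ccr2, Ccr7, Cxcr3, Cxcr4 and Ccr6 to Ackr1. Cx3cr1 was 24.0 times as high as Ccrl2 in library 1 and 13.2 times in library 2. Ccrl2, at 52.5 ± 10.7 CPM per kilobase (SD, n = 2), and Ccr1, at 38.2 ± 29.5, did not differ beyond their spread. Ccrl2 was the higher in both libraries, at 45.0 against 17.3 in library 1 and 60.1 against 59.0 in library 2. Ccr2 (10.5 ± 1.18), Ccr7 (7.76 ± 0.946) and Cxcr3 (3.87 ± 0.722) kept separate ranges over the 2 libraries. Cxcr4 (1.55 ± 0.718) and Ccr6 (1.52 ± 0.893) overlapped and exchanged places between the libraries. From Cx3cr1 to the lowest counted receptor, the level fell 1219-fold in library 1 and 385-fold in library 2. Cx3cr1 made up 92.7% of the summed level of the 9 receptors in library 1 and 84.3% in library 2, and the other 8 summed to 84.3 and 147 CPM per kilobase.

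**Figure D2:**
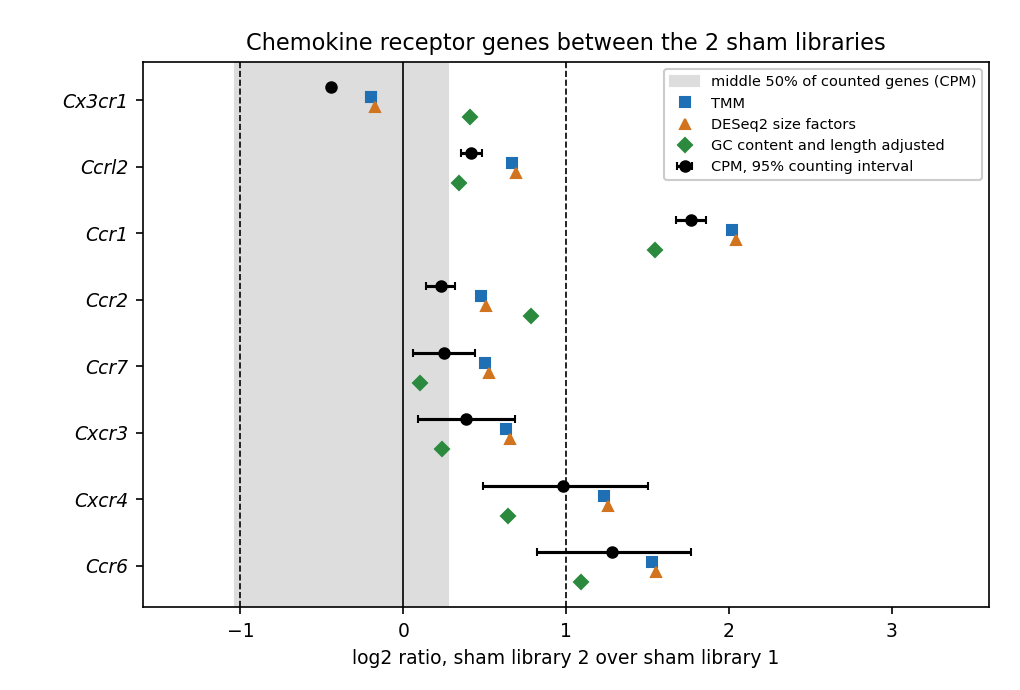
Log2 ratio of each counted receptor between the 2 sham libraries on the CPM scale (black circles with 95% counting intervals) and under 3 other scalings. The grey band holds the middle 50% of all counted genes, from -1.03 to 0.27, and the dashed lines mark 2-fold. Ccr1 and Ccr6 lie beyond the 2-fold line under every scaling shown, and Cx3cr1 changes side only with the GC content and length adjustment.

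Between the 2 mice, 2 of the 8 counted receptors, Ccr1 and Ccr6, differed by more than 2-fold in CPM, and both were higher in library 2. Across all 13445 genes counted in both libraries, 31.7% differed by more than 2-fold, 5.74% were higher and 25.9% were lower in library 2. With both directions pooled, the share of receptors past 2-fold was near the 31.7% of all counted genes. By direction, 2 of the 8 receptors were past 2-fold higher in library 2, against 5.74% of all counted genes. Past 2-fold lower were 0, against 25.9%. The list holds few genes and was drawn up with earlier results of these data known. No conclusion about chemokine receptors is drawn from these shares, which were not tested. The median log2 ratio was 0.40 over the 8 receptors and -0.26 over all counted genes, and 7 of the 8 receptors were higher in library 2. Ccr2 had the lowest log2 ratio of these 7, at 0.23, and 72.9% of all counted genes had a lower one. TMM moved every log2 ratio by 0.25 and DESeq2 size factors by 0.27, and with either of them 3 receptors (Ccr1, Ccr6 and Cxcr4) were past 2-fold. Over all counted genes, 28.5% were past 2-fold with TMM (8.78% higher and 19.7% lower) and 28.2% with DESeq2 size factors (9.22% higher and 19.0% lower). After the GC and length adjustment the median of the 8 receptors was 0.53. All 8 were above 0, the value on which the adjustment centres genes of similar GC content and length. Ccr1 and Ccr6 were then past 2-fold, as were 22.4% of the 13439 genes adjusted (9.70% higher and 12.7% lower).

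**Figure D3:**
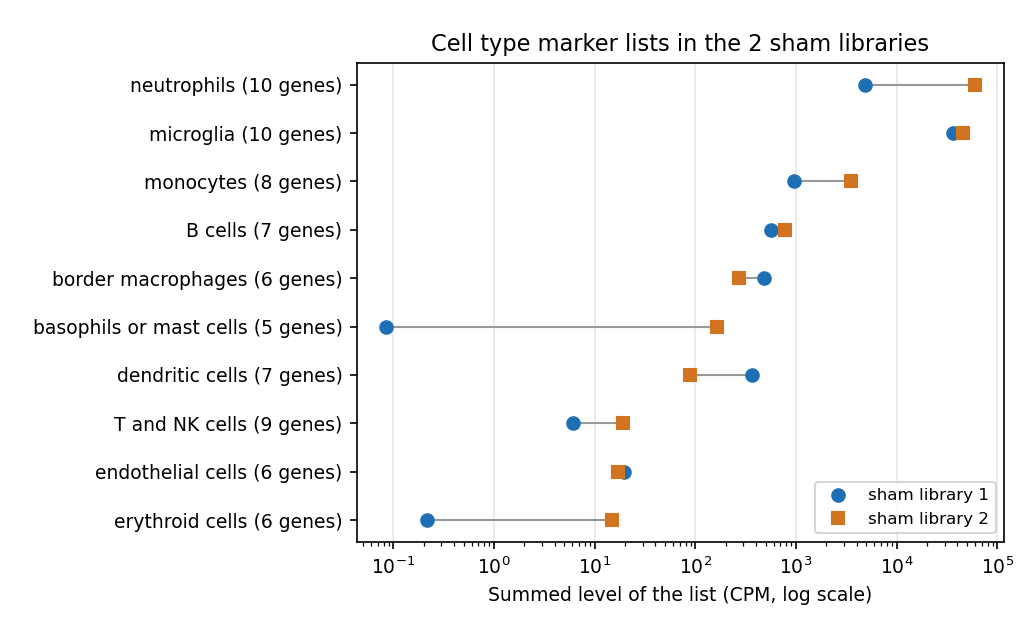
Summed level of cell type marker lists in CPM on a log axis (circles, library 1; squares, library 2; lines join the libraries). Neutrophil markers lie at 4790.5 and 59214 CPM and basophil or mast cell markers at 0.0855 and 165 CPM, whereas microglia markers lie at 36380 and 45199 CPM.

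Markers of other cells that carry these receptors differed between the libraries too. Of 10 neutrophil markers, 9 were past 2-fold higher in library 2, with a median log2 ratio of 3.59. Csf3r, the receptor of granulocyte colony-stimulating factor, went the other way at -0.55. Ccr1 is known from neutrophils and monocytes as well as from other myeloid cells. Its log2 ratio of 1.77 was below that of each of the 9 neutrophil markers, which ranged upward from 3.34 for Retnlg to 4.42 for Ngp, a granule protein of immature neutrophils. Among the 8 monocyte markers, 3 were past 2-fold higher and 2 past 2-fold lower, and the sums were 947 and 3546 CPM. Most of the difference lay in Chil3, a secreted chitinase-like protein, at 455 and 2901 CPM. The log2 ratios of the 8 ranged from -1.80 for F13a1 to 2.67 for Chil3, with Ly6c2, the surface antigen of inflammatory monocytes, at 1.74. Their median was 0.074, and Ccr2 had 0.23. The part of these cells in the levels of Ccr1 and Ccr2 was not tested.

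Lymphocyte and dendritic cell genes are given beside Cxcr3, Ccr6 and Ccr7. The T and NK cell markers summed to 6.16 and 19.0 CPM, and Cd3e and Cd8a had 0 counts in both. Cd4 had 104 and 115 counts. Higher in library 2 were Nkg7, a granule protein of NK cells and cytotoxic T cells, with 37 and 527 counts (log2 ratio 3.02), and Cd3d, a subunit of the T cell receptor complex, with 3 and 109. B cell markers summed to 570 and 778 CPM, almost wholly from Ighm, with 12094 and 29632 counts, and Cd79b, with 1219 and 2280. Cd79a, Ms4a1, Pax5 and Ebf1 had at most 56 counts in a library. Dendritic cell markers summed to 366 and 89.2 CPM, while Ccr7 had a log2 ratio of 0.25. Of that sum Fscn1, an actin-bundling protein also made by other cells, gave 285 and 25.7 CPM. Border macrophage markers summed to 484 and 273 CPM, and basophil or mast cell markers had 2 counts in library 1 and 6770 in library 2. The part of any of these cells in the receptor levels was not tested.

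**Figure D4:**
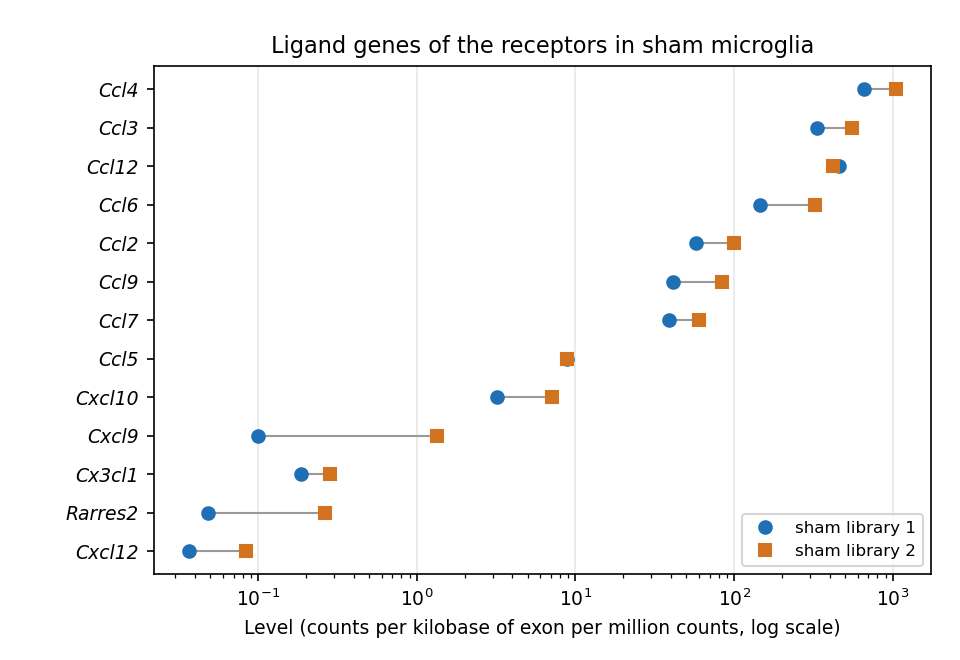
Level of the ligand genes with counts, in CPM per kilobase of exon on a log axis (circles, library 1; squares, library 2). Ccl4, Ccl3, Ccl12 and Ccl6 lie above 145 in both libraries, and Cx3cl1 at 0.185 and 0.284.

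The ligands of the receptors were set beside them. Of 16 ligand genes, 10 were counted in both libraries, of which 3 (Ccl6, Ccl9 and Cxcl10) were past 2-fold higher in library 2 and none was past 2-fold lower, against 5.74% higher and 25.9% lower over all counted genes. Their median log2 ratio was 0.70, and that of all counted genes was -0.26. With TMM 4 ligands were past 2-fold higher, against 8.78% of all counted genes. After the GC and length adjustment 1 was, against 9.70% of the genes adjusted. That ligand was Cx3cl1 (0.62 on the CPM scale, 1.43 adjusted), while Ccl6, Ccl9 and Cxcl10 fell short at 0.99, 0.81 and 0.95. The highest levels were those of Ccl4, Ccl3, a ligand of CCR1, and Ccl12, a mouse ligand of CCR2. Ccl4 had 661 and 1045 CPM per kilobase, Ccl3 had 333 and 552, and Ccl12 had 457 and 418. These are levels after tissue digestion and sorting, and the part of cell isolation in them was not tested. Cx3cl1, the gene of fractalkine, had 17 and 46 counts, or 0.185 and 0.284 CPM per kilobase, beside the 1079 and 792 of its receptor. Cxcl12, the ligand of Cxcr4, had 7 and 28 counts, and Rarres2, the gene of chemerin, had 3 and 29. Ccl19 and Ccl21a, the ligands of Ccr7, and Ccl20, the ligand of Ccr6, had 0 counts in both libraries.

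Genes that carry the receptor signal inside the cell were all counted, 16 of 16. On the CPM scale, 9 of them were past 2-fold lower in library 2 and none was past 2-fold higher, with a median log2 ratio of -1.41. Over all counted genes, 25.9% were lower and 5.74% higher, with a median of -0.26. After the GC and length adjustment 4 were past 2-fold lower and 1 (Rac2) higher, and the median was -0.52. With TMM, 9 were lower and 1 (Rac2) higher. The shares over all genes were 12.7% lower and 9.70% higher with the adjustment, and 19.7% and 8.78% with TMM. Gnai2, the most abundant inhibitory G protein subunit of the list, had 297 and 247 CPM per kilobase and a log2 ratio of -0.27. Rac1, a small GTPase of cell movement, had 12270 and 1278 counts, the lowest log2 ratio of the list at -4.08. Its relative Rac2, found in blood cells and microglia, had 0.96. Arrb2, the arrestin that ends receptor signalling, had -1.37, and Pik3cg, the kinase subunit activated by G proteins, had -2.31.

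Among the 15 other chemokine receptor genes of the annotation, 10 were counted in both libraries. Of these, 3 were past 2-fold higher in library 2 and 2 past 2-fold lower, beside 5.74% and 25.9% of all counted genes. Cxcr2, the receptor of neutrophils, had 1100 counts in library 1 and 8180 in library 2, a log2 ratio of 2.08 and thus above that of Ccr1. Ccr3, known from eosinophils and basophils, had 85 and 364 counts (log2 ratio 1.28), and Cxcr1 had 10 and 43. Ackr3, an atypical receptor of CXCL12, and Cxcr6 were lower in library 2, with log2 ratios of -1.11 and -1.87. Ackr3 had 190 and 155 counts, whereas Cxcr6 had only 25 and 12, close to the minimum for a counted gene. Cxcr6 alone was past 2-fold lower with TMM, beside 19.7% of all counted genes. Ccr1l1, Xcr1, Cxcr5 and Ccr9 were also counted, with between 13 and 58 counts in each library. Over all 24 receptor genes, Cx3cr1 made up 88.9% of the summed level per length in library 1 and 75.6% in library 2.

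The 3 genes whose levels per length lay nearest to those of Cx3cr1 in both libraries were Ctsb, Psap and Junb. Ctsb, the gene of cathepsin B, had 970 and 695 CPM per kilobase, at a distance of 0.24 on the log2 scale. Psap, the precursor of the saposins, had 882 and 768 (distance 0.29), and Junb, an AP-1 factor, had 872 and 814 (0.31). Likeness over 2 libraries rests on 2 values a gene.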

How the data were processed

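Reads of sorted sham microglia were mapped by the authors to GRCm38 with HISAT2 and counted per Ensembl gene with HTSeq, after cDNA synthesis with the SMART-Seq HT Kit, tagmentation and paired-end sequencing of 75 bases. The deposited values are raw counts, with no normalization by the authors. The strand setting, the release of the annotation and the versions of these tools are not given in the sources used here. Both samples were grouped from their titles.

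Gene starts, which the files count from 0, are given from 1. Symbols and exons came from GENCODE M21, which uses GRCm38 and matched 53620 of 53801 identifiers. Its gene starts and ends equalled those of the files for 52142 genes. CPM was 1000000 times a gene's share of all counts on genes. Levels of different genes were compared only after division by the union of their exons, in kilobases. Means and SDs are over 2 libraries, Wilson intervals and the exact Clopper-Pearson intervals of ratios cover counting error only, and 2 libraries limit every mean. A gene was called counted where each library held 10 or more counts of it. A ratio between the libraries shows how 2 mice of 1 group differ, and no test was run.

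Alternatives were TMM library sizes (edgeR 4.0.16), DESeq2 1.42.0 size factors, totals without mitochondrially encoded genes, other count minimums and folds, the longest transcript as length, each library alone, and log2 ratios less the median of genes in the same of 10 bins each of GC content and length (13439 genes). Ratios and scaling were checked on simulated data. The scripts ran in Python 3.11.15 with pandas 2.3.3, numpy 2.4.6, statsmodels 0.14.6, scipy 1.17.1 and matplotlib 3.10.9, and in R 4.3.3. The receptors and lists were chosen with earlier results of these data known. Named genes were the 9 receptors, the other receptor genes that were counted, fixed lists of 16 ligands, 16 signalling genes and cell type markers, and the 3 genes nearest to Cx3cr1. Of the other receptor genes, 1 that was counted is not reported here. Lists were described by counts and medians.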

Additional observations from a re-analysis of the deposited data

How the results depend on the processing

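No paired analysis was possible because both samples belong to 1 group. Leaving out a library leaves the value of the other, which always lies within 1 SD of the mean of 2, so it says nothing about stability of the levels. Library 1 had 14063 genes with at least 10 counts and library 2 had 15118, against 13445 in both. Every receptor level stayed within 1 SD of its reported mean with TMM, DESeq2 size factors and totals without mitochondrially encoded genes. TMM and DESeq2 size factors lower the levels of library 1 and raise those of library 2, so the mean of both hardly moves. Mitochondrially encoded genes made up just 0.766% (library 1) and 0.391% (library 2) of the totals, so removing them changed little. These outcomes were thus nearly fixed in advance and say little about stability of the levels. With the longest transcript as length, Ccr2 moved to 12.3 CPM per kilobase of exon. The order of the receptors changed for 2 of them, Cxcr4 and Ccr6, with the longest transcript, and for 0 to 2 of them with one library left out. With at least 1 count in either library, 24259 genes were compared and 7013 differed by more than 2-fold. At the main minimum, 6837 genes differed by more than 1.5-fold and 1198 by more than 4-fold. The number of receptors past the fold was 1 (Ccr1) with at least 50 counts in both libraries, where 3103 of 10588 genes were past it. On the CPM scale 0 receptors were above 4-fold. Ccr1 was above 4-fold with TMM (log2 ratio 2.02) and DESeq2 size factors (2.04), but not with the GC and length adjustment (1.54). The median log2 ratio of all counted genes was -0.013 by TMM and 0.012 by DESeq2 size factors, since these scalings centre it. Ackr1, Ccr6 and Cxcr4 are the receptors for which depth limits the values most.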
